A study of Mus musculus with 38 samples.

Results

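The 8 genes Tal1, Lmo2, Runx1, Spi1, Klf1, Fli1, Gfi1b and Cbfa2t3 encode transcription factors and a cofactor that direct blood cell formation, and they were followed here through a study that turned mouse fibroblasts into other cell types. They were picked by name, with earlier results of these data known, and all 8 were found in the single-cell table of 20695 genes and in the bulk RNA-seq tables of 35976 and 37108 genes. The starting cells were E13.5 mouse embryonic fibroblasts (MEFs), a mixed primary culture and not a clone, from Oct4-GFP (OG2) males, on a CBA/CaJ×C57BL/6J background, and 129S4/SvJaeJ females. They received the factors by retrovirus and were grown in iCD3 medium, with BMP4 at 10 ng/ml (BMP4+) or without it (BMP4-). JGES stands for Jdp2, Glis1, Esrrb and Sall4, JGE lacks Sall4, JGEO has Oct4 in place of Sall4, and JGESO has all 5 genes. A further set of MEFs received Sall4 alone, as the wild-type protein (SALL4 WT) or as SALL4 delN12, which lacks the N-terminal residues that recruit the NuRD repressor complex. Their bulk RNA-seq libraries are listed without BMP4, and no BMP4 level is listed for their ATAC-seq and Cut&Tag samples. The 38 samples were 2 scRNA-seq samples of JGES cells at day 7, 23 bulk RNA-seq libraries, 9 ATAC-seq samples and 4 Cut&Tag samples. Each condition had 1 sample, so values are compared without tests, except that 4 days were taken as pairs in 2 bulk comparisons. The intervals given cover counting error alone, and how far cultures of a condition vary is unknown.

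Blood cells and the endothelium that lines vessels share an embryonic origin, and the first blood stem cells arise from a haemogenic endothelium. TAL1, LMO2 and their partners LDB1, TCF3 and GATA1 or GATA2 form a DNA-bound complex that opens the blood programme, and CBFA2T3 (ETO2) brings corepressors to it. RUNX1 is needed for blood cells to leave the endothelium, SPI1 (PU.1) directs macrophages and other myeloid cells, and FLI1 is an ETS factor of endothelium and megakaryocytes. KLF1 switches on red cell genes, adult beta globin among them, and GFI1B is a repressor of the red cell and megakaryocyte lineages.

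On the mm10 build with the GENCODE vM21 annotation, Gfi1b lies at chr2:28609450-28621982 on the minus strand, Spi1 at chr2:91082390-91115756 and Lmo2 at chr2:103957986-103981878, both on the plus strand. Tal1 lies at chr4:115056426-115071755 and Klf1 at chr8:84901928-84905291, both on the plus strand. Cbfa2t3 lies at chr8:122625141-122699109, Fli1 at chr9:32422204-32542861 and Runx1 at chr16:92601466-92826149, all on the minus strand. No other protein-coding gene starts within 4 kb of a start of these genes.

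RefSeq (GRCm38.p6) gave promoter entries for 5 of the 8 genes, namely Tal1, Klf1, Gfi1b, Cbfa2t3 and Runx1, with 8 windows of up to 250 bases before a start. The letters GATAA, the core that GATA factors bind, or their reverse complement occurred in 4 of these 8 windows, 1 match each, and in 22.6% of the 32851 promoter windows of 250 bases in the table. These 4 windows are printed because GATA1 and GATA2 act in a complex with TAL1 and LMO2, whose levels the results turn on. They lie at chr4:115056176-115056425 for Tal1, chr2:28621983-28622232 for Gfi1b, chr8:84901732-84901927 for Klf1 and chr8:122699110-122699359 for Cbfa2t3. Each is written 5′ to 3′ on the strand of its gene, and capitals mark GATAA or its reverse complement TTATC, and the ETS-factor letters AGGAAG or their reverse complement CTTCCT.
Tal1: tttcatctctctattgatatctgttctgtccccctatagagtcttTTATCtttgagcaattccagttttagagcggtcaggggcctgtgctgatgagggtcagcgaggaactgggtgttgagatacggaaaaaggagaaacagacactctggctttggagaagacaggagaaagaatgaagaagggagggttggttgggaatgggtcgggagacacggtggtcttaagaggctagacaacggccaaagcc
Gfi1b: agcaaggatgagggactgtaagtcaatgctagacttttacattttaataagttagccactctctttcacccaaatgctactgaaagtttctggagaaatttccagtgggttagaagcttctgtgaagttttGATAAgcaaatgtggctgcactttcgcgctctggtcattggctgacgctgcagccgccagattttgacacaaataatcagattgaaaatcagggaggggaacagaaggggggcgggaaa
Klf1: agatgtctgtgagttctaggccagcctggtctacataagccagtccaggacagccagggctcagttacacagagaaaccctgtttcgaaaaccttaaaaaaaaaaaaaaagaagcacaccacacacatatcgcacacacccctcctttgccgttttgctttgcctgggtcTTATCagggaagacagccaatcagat
Cbfa2t3: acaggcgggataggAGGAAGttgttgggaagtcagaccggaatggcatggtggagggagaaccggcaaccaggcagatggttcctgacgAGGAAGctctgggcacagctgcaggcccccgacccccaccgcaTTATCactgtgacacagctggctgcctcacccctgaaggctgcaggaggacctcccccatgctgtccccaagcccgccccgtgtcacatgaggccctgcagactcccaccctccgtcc
The ETS letters had 2 matches in the Cbfa2t3 window and a match in 29.5% of all promoter windows. Neither Runx1 window held GATAA, and the window before the distal Runx1 start held 1 ETS match. The RUNX letters TGTGGT or ACCACA had 1 match in the Klf1 window and were in 14.0% of all windows. The E-box letters CAGCTG, which TAL1 with TCF3 can bind, had 2 matches in the Cbfa2t3 window and were in 13.0% of all windows. Matches this short describe the sequence and not binding.

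The scRNA-seq table held 11335 BMP4+ cells with a median of 21205 UMIs and 8685 BMP4- cells with a median of 12738 UMIs, each cell with a cell type label from the authors. Levels are the UMIs of a gene as counts per 1e6 UMIs (CPM), both summed over the cells of a label. Shares of cells with a UMI were, unless stated, taken after each cell was thinned at random to 4000 UMIs, which left out no cell. The labels came from clustering these same cells, so differences between labels are a description. Endothelial cells were 1453 of the BMP4+ cells (12.8%) and 507 of the BMP4- cells (5.84%). All 14 endothelial marker genes were above 3 UMIs in these cells in both samples, among them Cdh5 (VE-cadherin) at 179 CPM with BMP4 and 55.5 CPM without. As the same cells also held globin RNA, they are called endothelial-labelled cells here. Doublets were not removed here, and 2 cell barcodes occurred in both samples.

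Most UMIs of Tal1, Spi1 and Gfi1b came from the endothelial-labelled cells, which held 13.0% of all BMP4+ UMIs and 6.84% of all BMP4- UMIs. Of the Tal1 UMIs they held 90.0% with BMP4 and 90.8% without it. For Spi1 the shares were 91.6% and 88.4%, and for Gfi1b 94.0% and 90.8%. Fli1 (80.1% and 68.5%) and Cbfa2t3 (81.3% and 76.6%) followed. Klf1 had few UMIs in all, 155 with BMP4 and 156 without, of which 48.4% and 42.9% were in endothelial-labelled cells. In the other labels Tal1, Spi1, Klf1 and Gfi1b stayed below 2 CPM, and Fli1 reached 3.02 CPM at most, in the BMP4+ intermediate cells.

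Lmo2 and Runx1 had more UMIs outside the endothelial-labelled cells than the other factors. Lmo2 was at 22.0 CPM (21.3 to 22.8) in the 7125 BMP4+ cells labelled intermediate and at 33.2 CPM (31.9 to 34.4) in the 6211 BMP4- ones. It was lower, at 6.20 CPM, in the 1825 cells labelled pluripotent, all without BMP4. Runx1 had like levels across the BMP4+ labels, at 62.6 CPM in endothelial-labelled, 53.7 in intermediate, 60.4 in ParE and 51.9 in placenta-like cells. ParE is the authors' label and is read here as the primitive endoderm-like cells of the study. Without BMP4, Runx1 was at 17.3 CPM in endothelial-labelled, 29.1 in ParE, 3.74 in intermediate and 1.79 in pluripotent cells. Endothelial-labelled cells thus held 14.4% of the BMP4+ Runx1 UMIs, near their 13.0% of all UMIs, and 25.8% of the BMP4- ones.

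**Figure D1:**
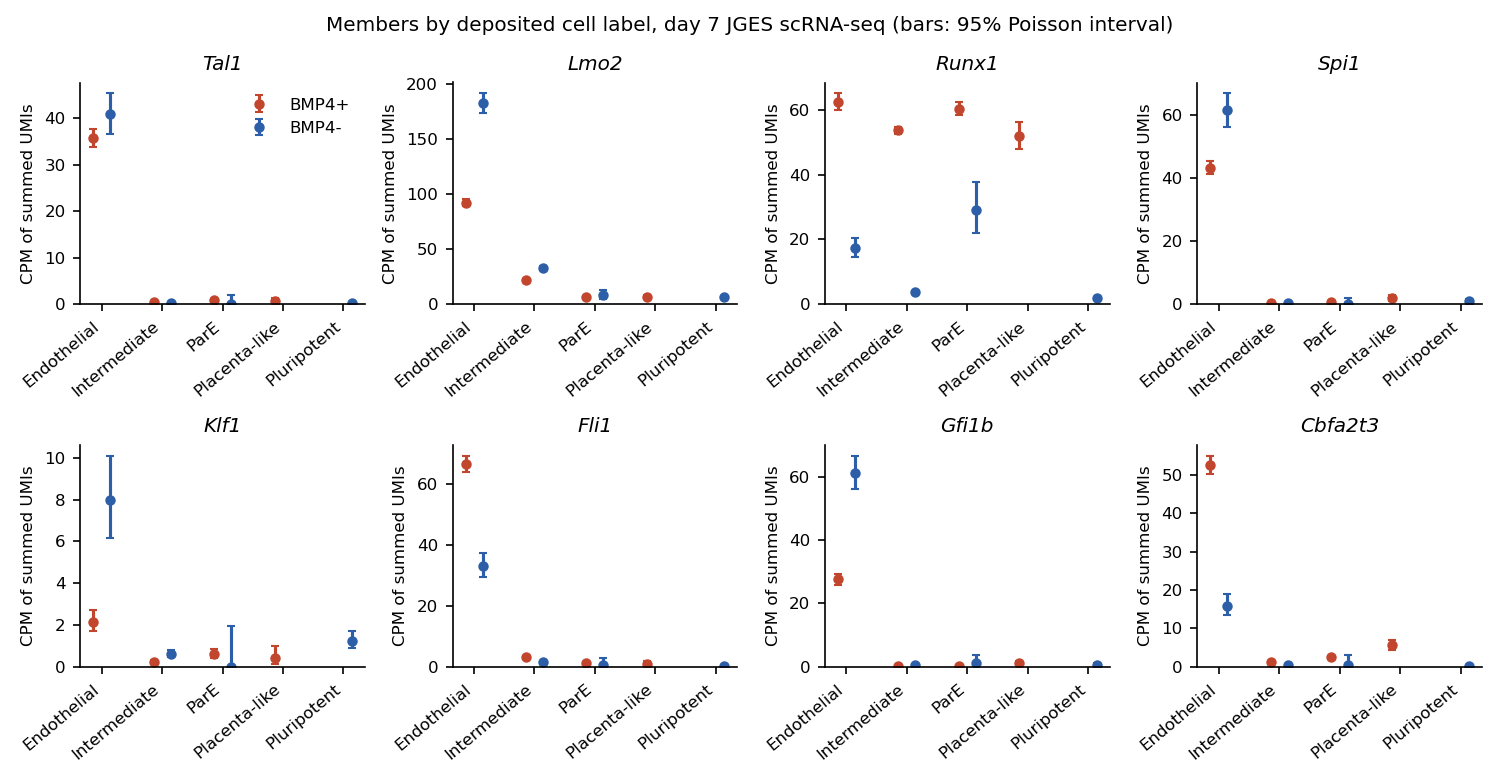
Level of each of the 8 genes (CPM of UMIs summed over the cells of a label, linear axis from 0) by the authors' cell label, in red for BMP4+ and blue for BMP4-, with exact 95% Poisson intervals as bars and 1 sample per condition. Runx1 is at 51.9 to 62.6 CPM in the 4 BMP4+ labels, while Tal1, Spi1 and Gfi1b stand out in endothelial-labelled cells of both samples.

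Shares of cells with a UMI were compared at equal depth. Among endothelial-labelled cells thinned to 4000 UMIs, Lmo2 was seen in 25.1% with BMP4 and 38.1% without, and Tal1 in 11.9% and 13.2%. Without thinning these shares were 57.1% and 65.9% for Lmo2, and 44.5% and 34.3% for Tal1, whose order thus turned with the depth. Pluripotent cells, which should lack most of these genes, were taken as background in the BMP4- sample, and free RNA itself was not estimated. Between 0.110% and 0.603% of them had a UMI of each gene other than Lmo2, and 1.75% had one of Lmo2. Their median depth was 15444 UMIs, against 15083 in the BMP4- endothelial-labelled cells. The BMP4+ sample had no pluripotent cells. In its intermediate cells 0.0702% to 0.996% had a UMI of each factor other than Lmo2 (7.44%) and Runx1 (15.6%), at a median depth of 19594 UMIs against 21763 in the endothelial-labelled cells. Runx1 was in 17.5% of the BMP4+ endothelial-labelled cells, within the 15.6% to 20.4% of the other 3 labels. Klf1, in 1.10% and 2.96% of endothelial-labelled cells with and without BMP4, came closest to its level in pluripotent cells, 0.603%. The pluripotency gene Dppa5a was at 253 CPM in the BMP4- endothelial-labelled cells, 261 CPM in the BMP4- intermediate cells and 0.372 CPM in the BMP4+ endothelial-labelled cells, and its part in these results was not tested.

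The endothelial-labelled cells of the BMP4+ and BMP4- samples carried these factors in different proportions. Runx1 was at 62.6 CPM (60.0 to 65.3) in BMP4+ cells and at 17.3 CPM (14.6 to 20.4) in BMP4- cells, a BMP4-/BMP4+ ratio of 0.277 (0.233 to 0.328). Cbfa2t3, the corepressor, was at 52.6 CPM (50.2 to 55.0) and 15.9 CPM (13.3 to 18.8), a ratio of 0.303 (0.252 to 0.361). Fli1 was at 66.6 CPM (64.0 to 69.4) and 33.3 CPM (29.5 to 37.4), a ratio of 0.499 (0.439 to 0.565). These 3 factors were lower in the sample without BMP4.

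The red cell factors and Lmo2 differed in the other direction. Klf1 was at 2.15 CPM (1.69 to 2.69) in BMP4+ cells and at 7.96 CPM (6.17 to 10.1) in BMP4- cells, a ratio of 3.71 (2.63 to 5.22). Gfi1b was at 27.6 CPM (25.9 to 29.4) and 61.2 CPM (56.0 to 66.7), a ratio of 2.22 (1.99 to 2.47). Lmo2 was at 91.8 CPM (88.6 to 95) and 182 CPM (173 to 192), a ratio of 1.99 (1.87 to 2.11). Spi1 (43.4 and 61.5 CPM, ratio 1.42, 1.28 to 1.57) and Tal1 (35.7 and 40.9 CPM, ratio 1.14, 1.01 to 1.29) had the ratios nearest to 1. The Poisson intervals of the 2 samples were apart for every factor except Tal1, at 33.7 to 37.7 and 36.7 to 45.4 CPM.

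The whole profile was shifted as well. The median BMP4-/BMP4+ ratio was 0.741 over the 11203 genes of at least 1 CPM in both sets of endothelial-labelled cells, and 1.28 over the 8 factors. At least 2-fold higher with BMP4 were 3 of the 8 (Runx1, Cbfa2t3 and Fli1), where 24.4% of the 12442 genes of at least 1 CPM in either set were. At least 2-fold lower with BMP4 were 2 of the 8 (Klf1 and Gfi1b), where 7.83% of those genes were, and Lmo2 lay just inside that limit.

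**Figure D2:**
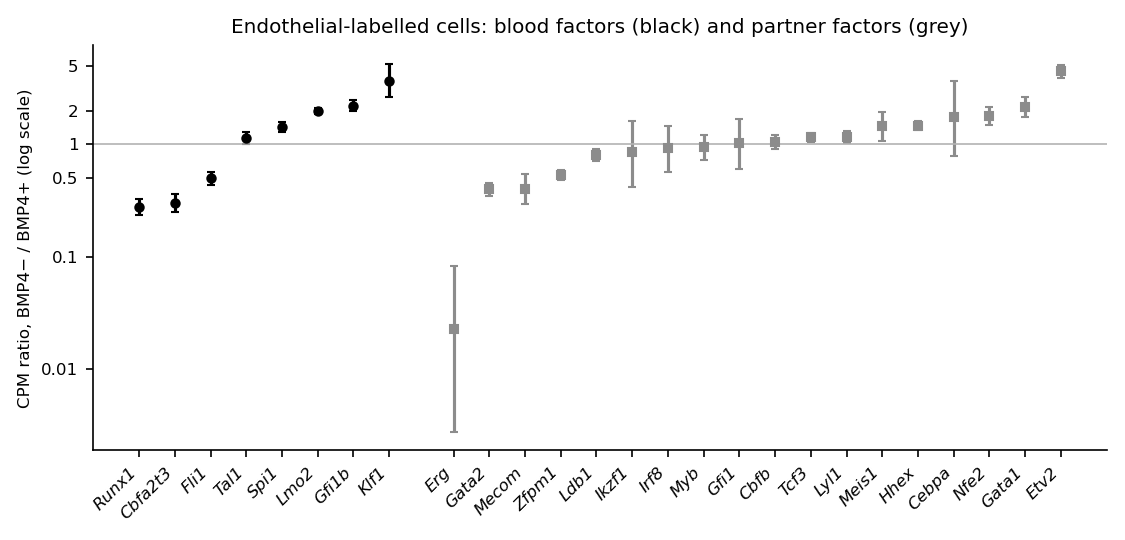
BMP4-/BMP4+ ratio of CPM in endothelial-labelled cells (log axis) for the 8 factors in black and 18 partner factors in grey; bars are exact 95% intervals of counting error, and the line marks a ratio of 1. Runx1, Cbfa2t3 and Fli1 lie between 0.277 and 0.499, Lmo2, Gfi1b and Klf1 between 1.99 and 3.71, and Erg has the lowest ratio of all genes plotted.

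Partners of these factors differed both ways. Of 18 partner factors, 3 were at least 2-fold higher with BMP4 (Gata2, Mecom and Erg) and 2 at least 2-fold lower (Gata1 and Etv2), and their median ratio was 1.04. Gata2, the GATA factor of early progenitors, had levels of 77.8 and 31.0 CPM with and without BMP4 (ratio 0.398, 0.35 to 0.453). Gata1, which takes its place in red cells, was at 8.59 and 18.5 CPM (ratio 2.16, 1.77 to 2.63). Etv2, the ETS factor that starts the common blood and endothelial programme, was at 13.3 and 59.9 CPM (ratio 4.49, 3.95 to 5.10). Erg, an ETS factor of endothelium and stem cells, was at 10.4 CPM with BMP4, while 2 UMIs were found without it (0.238 CPM, ratio 0.0228, 0.00275 to 0.0829).
Ratios were nearer to 1 for Ldb1 (0.811) and Tcf3 (58.3 and 67.7 CPM) of the TAL1 complex and for the TAL1 relative Lyl1 (1.17), unlike those of Lmo2, Gata1 and Gata2. The RUNX1 partner Cbfb had a ratio of 1.05 (0.903 to 1.22). Zfpm1 (FOG1), the cofactor of GATA1, was at 98.9 and 53.0 CPM.

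Red cell genes were measured in the same cells. The 12 genes of the list in the table summed to 112 CPM with BMP4 and 716 CPM without. The embryonic globins Hbb-bh1 (24.2 and 186 CPM), Hba-x (38.9 and 83.1 CPM) and Hbb-y (8.64 and 42.8 CPM) were higher without BMP4, as was Hba-a1 (17.8 and 352 CPM), whose UMIs cannot be told with certainty from those of its near-identical copy Hba-a2. The adult beta globin gene Hbb-bt, a known target of KLF1, had 18 and 1 UMIs. The megakaryocyte genes summed to 41.3 and 32.4 CPM, with the integrin gene Itga2b at 17.4 and 17.9 CPM and the platelet factor gene Pf4 at 9.19 and 1.19 CPM. The progenitor genes differed both ways. Cd34 was at 152 and 38.1 CPM, Cd93 at 27.8 and 8.19 CPM, Kit at 19.9 and 13.9 CPM and Ly6a at 16.6 and 6.65 CPM. Procr was higher without BMP4, at 11.7 and 18.9 CPM, and Flt3 was at 0 UMIs in both.

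White cell markers were read in the same cells. The 14 macrophage genes summed to 200 CPM (6978 UMIs) with BMP4 and 114 CPM (959 UMIs) without, and 14 and 8 of them were above 3 UMIs. Ptprc (CD45), which defines white blood cells, had 33 UMIs (0.945 CPM) and 3 UMIs (0.356 CPM). Laptm5 (61.0 and 42.0 CPM), Lyz2 (47.8 and 10.8 CPM) and Tyrobp (29.7 and 48.1 CPM) were the highest of the 14. Cells with at least 5 of the 14 macrophage genes, counted without thinning, numbered 14 and 3. Spi1 was at 453 and 429 CPM in those few cells, and without them at 39.6 and 59.2 CPM in the endothelial-labelled cells. The mast cell genes summed to 4.06 and 4.75 CPM, all of it Hdc, and the lymphoid genes to 1.29 and 0.475 CPM.

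Blood and endothelial markers were counted in each endothelial-labelled cell. After thinning, 60.9% of the BMP4+ cells (58.3 to 63.4%) and 44.6% of the BMP4- cells (40.2 to 49.0%) had UMIs of at least 3 of the 14 endothelial genes. At least 3 of 43 blood markers, with the 8 factors left out, were seen in 4.96% (72 cells, 3.90 to 6.20%) and 8.09% (41 cells, 5.87 to 10.8%). Both limits were met by 31 of 1453 and 8 of 507 cells, or 2.13% and 1.58%, and without thinning by 24.6% and 17.4%. Neither was met by 36.3% and 48.9%. Of the 1825 pluripotent cells, 2 met the blood limit. Classes made by counting markers are ranges and not cell types, and these shares moved with the limit and the depth: without thinning the blood limit was met by 27% with BMP4 and 24.7% without, in the opposite order.

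Part of the endothelial-labelled cells had several of the 8 factors. At least 3 of them had a UMI in 156 of the 1453 BMP4+ cells after thinning, 10.7% (9.19 to 12.4%), and in 42 of the 507 BMP4- cells, 8.28% (6.04 to 11%). These intervals overlap. In the BMP4+ sample 489 endothelial-labelled cells had none of the 8, 515 had 1, 293 had 2, and 1 cell had 6. Among the other labels the share with at least 3 was at most 0.0281%. No pluripotent cell of 1825 had 3, and a count of 0 there, read as up to 3 cells, leaves room for 0.164%. Without thinning the shares in endothelial-labelled cells were 57.2% and 43.8%, and at 2000 UMIs per cell 2.27% and 3.35%, in the opposite order.

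Pairs of factors differed in how far they shared cells. In the BMP4+ sample, Runx1 was seen in 47.1% of the cells with a Gfi1b UMI and 15.2% of those without. Fli1 was seen in 11.4% of the cells with Runx1 and 23.5% of those without. Lmo2, the adaptor that binds TAL1, was seen in 32.4% of the 173 cells with Tal1 and 24.1% of the others, and Fli1 in 29.5% and 20.3%.

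In the BMP4- sample Spi1 was seen in 45.7% (28.8 to 63.4%) of the 35 cells with Runx1 and in 13.6% (10.6 to 17%) of those without. Lmo2 was seen in 8.57% (1.80 to 23.1%) of the cells with Runx1 and in 40.3% (35.8 to 44.8%) of the others. Gfi1b was seen in 31.2% of the 80 cells with Spi1 against 13.6%, and in 60.0% (32.3 to 83.7%) of the 15 cells with Klf1 against 15.0%. In the BMP4+ sample the shares with and without Runx1 were 18.9% and 10.8% for Spi1 and 25.2% and 25% for Lmo2. Spi1 was thus seen at a higher share in cells with Runx1 in both samples. Whether the Lmo2 shares differ between the samples was not tested.

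The endothelial-labelled cells were next divided by UMIs of genes outside the 8. Cells were not thinned for these divisions by Etv2, globin, Cdh5 and Itga2b. The numbers of cells on each side thus also depend on depth, which was lower in the BMP4- sample. Etv2 had a UMI in 158 BMP4+ cells (10.9%) and 126 BMP4- cells (24.9%). The median depth of cells with and without Etv2 was 26836 and 21297 UMIs in the BMP4+ sample and 15550.5 and 14750 UMIs in the BMP4- sample. In BMP4- cells, Tal1 was at 86.4 CPM with Etv2 and 24.6 CPM without, a ratio of 3.51 (2.82 to 4.37). Lmo2 was at 343 and 125 CPM (ratio 2.74, 2.48 to 3.04), and Fli1 at 47.9 and 28.0 CPM (1.71, 1.33 to 2.19). Gfi1b was lower in the Etv2 cells, at 15.4 against 77.5 CPM (0.199, 0.136 to 0.281), and so was Spi1, at 18.5 against 76.8 CPM (0.241, 0.171 to 0.332). BMP4- cells with Etv2 thus had more Tal1, Lmo2 and Fli1 per UMI, and less of the other 5 factors, with ratios of 0.370 for Runx1, 0.276 for Klf1 and 0.436 for Cbfa2t3.

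With BMP4 the ratios between cells with and without Etv2 were nearer to 1. Tal1 had a ratio of 1.37 (1.18 to 1.58), Fli1 of 1.42 (1.27 to 1.58) and Lmo2 of 0.973 (0.875 to 1.08). Spi1 (0.393), Runx1 (0.460) and Gfi1b (0.672) were lower in the cells with Etv2 here too.

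The same comparison was made for globin RNA. At least 3 globin UMIs were found in 113 BMP4+ cells (7.78%) and 76 BMP4- cells (15.0%), with median depths of 25866 and 18268 UMIs, against 21428 and 14395 UMIs in the others. Gfi1b was at 142 CPM in the BMP4+ globin cells and 15.8 CPM in the others (ratio 8.99, 7.91 to 10.2), and at 167 and 38.8 CPM in BMP4- cells (4.31, 3.61 to 5.14). Klf1 was at 12.8 and 1.04 CPM with BMP4 (12.3, 7.60 to 20.0), and at 27.3 and 3.88 CPM without (7.03, 4.21 to 11.9). Gfi1b and Klf1 were thus several times higher beside globin RNA. Spi1 was at 104 against 37.1 CPM with BMP4 and 124 against 48.5 CPM without, ratios of 2.79 and 2.55, and Runx1 had ratios of 2.91 and 3.04. Tal1 was higher in BMP4+ globin cells (1.57, 1.33 to 1.84) and lower in BMP4- ones (0.504, 0.341 to 0.722), and Lmo2 was lower in both (0.746 and 0.431). Among the cells under 3 globin UMIs, Gfi1b was at 38.8 CPM without BMP4 and 15.8 CPM with it, and Klf1 at 3.88 and 1.04 CPM. The limit of 3 globin UMIs was set on cells that were not thinned, and the BMP4- cells were the shallower ones.

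Fli1 was higher beside the endothelial marker Cdh5, which without thinning had a UMI in 1118 BMP4+ cells (76.9%) and 173 BMP4- cells (34.1%). With BMP4, Fli1 was at 77.9 CPM in cells with Cdh5 and 25 CPM in cells without (ratio 3.11, 2.68 to 3.63), and Tal1 at 39.8 and 20.3 CPM (1.96, 1.65 to 2.34). Runx1 (0.646) and Cbfa2t3 (0.729) were lower in BMP4+ cells with Cdh5, and Lmo2 had a ratio of 1.05 (0.963 to 1.15). Without BMP4 the Fli1 ratio was 1.52 (1.20 to 1.94), Tal1 was lower in cells with Cdh5 (0.651), and Runx1 (1.61) and Spi1 (1.42) were higher. Whether these ratios differ between the samples was not tested.

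Itga2b (CD41), an integrin gene of early blood cells and megakaryocytes, had a UMI in 361 BMP4+ and 98 BMP4- cells without thinning. In those cells Spi1 was 2.37 and 2.85 times higher than in the others with and without BMP4, and Gfi1b 3.85 and 2.08 times. Runx1 was 1.69 and 2.17 times higher, and Klf1 1.86 and 1.84 times. Cbfa2t3 was higher in the BMP4+ cells with Itga2b (1.31) and lower in the BMP4- ones (0.416).

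**Figure D3:**
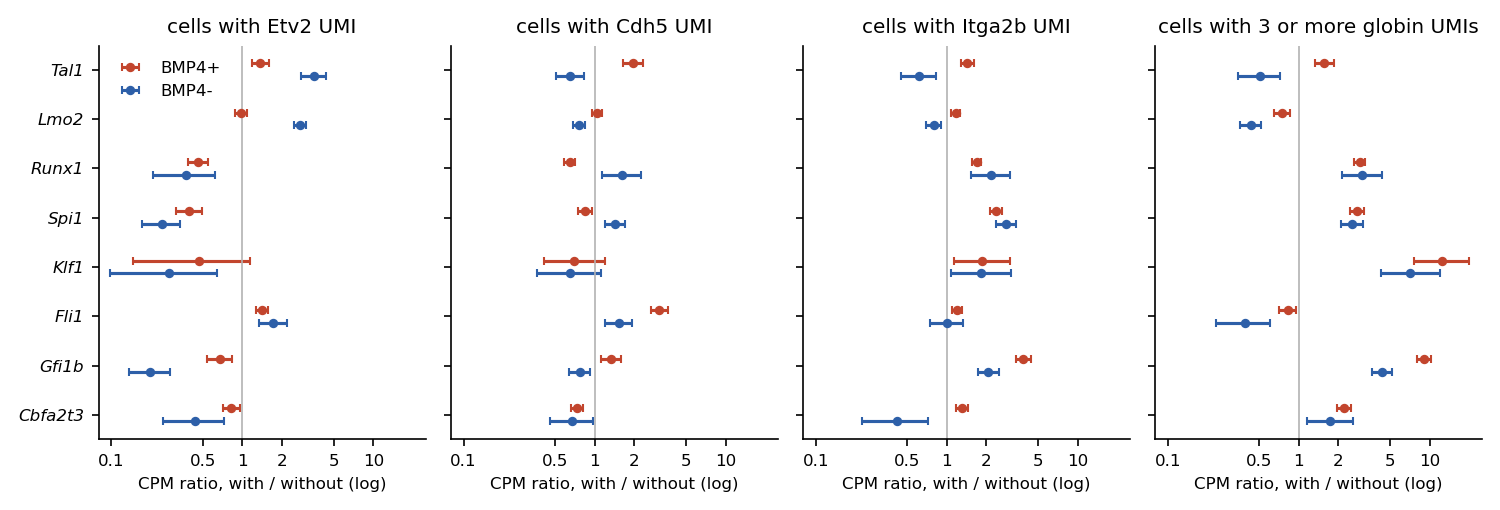
Ratio of CPM (log axis) between endothelial-labelled cells with and without a UMI of Etv2, Cdh5 or Itga2b, or with and without 3 globin UMIs, for the 8 factors, in red for BMP4+ and blue for BMP4-; bars are exact 95% intervals of counting error. Gfi1b, Klf1, Runx1 and Spi1 lie above 1 in the globin and Itga2b panels and below 1 in the Etv2 panel in both samples, with the BMP4+ Klf1 interval in the Etv2 panel reaching 1.14.

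The genes whose share of cells differed most with each factor in BMP4- endothelial-labelled cells were taken as most like it, among genes in at least 5% of these cells. For Klf1 they were Cited4 (73.3% of the 15 Klf1 cells and 21.5% of the others), Hba-a1 (60.0% and 10.4%) and Blvrb (80.0% and 33.3%). For Runx1 they were the cytokine receptor gene Csf2rb (45.7% and 7.42%), Rac2 (51.4% and 17.6%) and Spi1. For Spi1 they were Rac2 (51.2% and 14.1%), Rnd2 and Ctsz, and for Gfi1b Rac2 (48.2% and 14.4%), Rnd2 and Mt1. Rac2, a small GTPase of blood cells, was thus on 3 of the 8 lists. For Fli1 they were the VEGF receptor gene Kdr (55.7% and 32.1%), Crip2 and Cldn5. Lmo2 was most like Serpinh1 (62.7% and 40.8%), Ptp4a3 and the tight junction gene Cldn5 (56.0% and 34.1%). Tal1 was most like Gadd45g (74.6% and 52.0%), Bex4 and Dazap1, and Cbfa2t3, seen in 28 cells, was most like Calm2, Ucp2 and Wac.

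Bulk RNA-seq followed the factors through JGES reprogramming on days 0, 1, 3, 5 and 7, in FPKM (fragments mapped to a gene, corrected for its length and the library total). In bulk RNA, fewer cells of a type and less RNA per cell cannot be told apart. Read totals were not used here, and depth was compared through the steps between low values. By these, 1 fragment was worth 6.15 to 7.44 times more FPKM in the 9 JGES libraries than in the SALL4 delN12 library of day 9, and 1.03 to 1.30 times more in the other SALL4 libraries, so low JGES values rest on few fragments. Differences are of log2(FPKM + 1), which understates changes of low genes. A gene was counted as past the fold when this difference was at least 1 and it had at least 1 FPKM in either library. A gene under 1 FPKM in 1 library thus enters a count through the library where it is higher.

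Lmo2 was the first of the 8 to be high and had the highest FPKM. It was at 0.331 FPKM on day 0, and without BMP4 at 19.9, 47.0, 37.1 and 37.8 FPKM on days 1, 3, 5 and 7. With BMP4 it was at 16.6, 6.51, 14.5 and 10.6 FPKM. The BMP4+ and BMP4- values were close on day 1, and from day 3 on every BMP4+ value was below every BMP4- value. The share of all genes with such an order of values was not counted, here or for the genes below, so it is a description. The BMP4+ minus BMP4- difference was -0.25 on day 1, -2.68 on day 3, -1.30 on day 5 and -1.75 on day 7, past the fold from day 3.

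Runx1 differed in the other direction. It was at 1.82 FPKM on day 0, at 1.41, 0.703, 0.811 and 1.81 FPKM without BMP4, and at 1.14, 1.60, 6.77 and 5.56 FPKM with it. No BMP4- value passed that of day 0, and the BMP4+ libraries of days 5 and 7 were above all the others. The difference was 2.10 on day 5 and 1.23 on day 7, both past the fold. In the single cells of day 7 Runx1 was likewise higher in the BMP4+ sample, in each label that both samples had.

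With the 4 days as pairs, limma over all 17047 genes of at least 1 FPKM in any of the 8 libraries called none of the 6 factors tested, where 0.346% of genes were higher and 0.223% lower. Lmo2 had a mean BMP4+ minus BMP4- difference of -1.49 (SE 0.35), lower on 4 of 4 days, with an adjusted p of 0.108 by limma. Leaving out days 1, 3, 5 and 7 in turn, its adjusted p by limma was 0.0199, 0.264, 0.337 and 0.310, so it was called without day 1 and not without the others. Runx1 had a mean difference of 0.94 (SE 0.38), higher on 3 of 4 days, with an adjusted p of 0.229 by limma, and 2 of the 6 factors and 3518 of the 17047 genes had an unadjusted p under 0.05. Such a p measures how far the difference varied between days, not between cultures.

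Markers of other cell types differed between the same libraries. On day 7 the 7 fibroblast genes summed to 97.4 FPKM without BMP4 and 690 FPKM with it, and the 5 pluripotent genes to 855 and 41.2 FPKM. The 5 primitive endoderm genes summed to 61.1 and 147 FPKM, the 6 placenta genes to 38.0 and 106 FPKM, and the 14 macrophage genes to 15.2 and 13.7 FPKM. On day 3, the first day with Lmo2 past the fold, the fibroblast sums were 97.0 and 273 FPKM and the pluripotent sums 141 and 23.2 FPKM. Their part in the Lmo2 and Runx1 differences was not tested.

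Tal1 and Gfi1b were higher on days 5 and 7 than on day 0 under both conditions. Tal1 was at 0.124 FPKM on day 0, at 0.120, 1.28, 3.19 and 1.69 FPKM without BMP4, and at 0.129, 1.05, 1.80 and 1.88 FPKM with it. Gfi1b was listed at 0 through day 3 in every JGES library, then at 2.76 and 1.67 FPKM on days 5 and 7 without BMP4, and at 1.2 FPKM on both days with it. The day 5 library without BMP4 thus had the highest value of both genes. After adjusting for depth, the 4 Gfi1b values above 0 were 16, 8, 6 and 6 times the smallest Gfi1b value in the table, which stands for at least 1 fragment. The BMP4+ minus BMP4- differences of day 5, -0.58 for Tal1 and -0.81 for Gfi1b, were within the fold. The 7 fibroblast genes summed to 1214 FPKM on day 0. On days 5 and 7 they summed to 78.5 and 97.4 FPKM without BMP4, and 360 and 690 with it. The 5 pluripotent genes went from 5.85 FPKM to 443 and 855 without BMP4, and to 18.8 and 41.2 with it. Of the 14 endothelial genes, 5 reached 1 FPKM on day 0, and 12 and 13 on days 5 and 7 under both conditions. The part of these lists in the differences from day 0 was not tested.

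The other 4 factors stayed near or below 1 FPKM in the JGES libraries. Fli1 was at 0.0812 to 1.23 FPKM, with the BMP4+ library above the BMP4- library on each of the 4 days. Spi1 was at 0.176 to 1.23 FPKM and Cbfa2t3 at 0 to 0.855 FPKM, with no constant order of the 2 conditions. Klf1 was listed at 0 in all libraries with BMP4 and at 0.424, 0.451 and 0.616 FPKM on days 1, 3 and 5 without it. After adjusting for depth, these were at most 3 times the smallest Klf1 value in the table.

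Few of the 8 passed the fold in these comparisons. Of the factors, 3 to 5 reached 1 FPKM. Higher with BMP4 was none on days 1 and 3, where 3.75% and 6.81% of all genes tested were, and 1 on days 5 and 7, Runx1, where 8.78% and 10.3% were. Lower with BMP4 was none on day 1 (5.72% of all genes) and 1 on days 3, 5 and 7, Lmo2 (8.99%, 13.2% and 13.8%). The median difference of all genes was -0.18 on day 5 and -0.14 on day 7, smaller than those of Lmo2 and Runx1. With a pseudocount of 0.1 in place of 1, Spi1 also passed the fold on days 1 (higher) and 3 (lower), Runx1 on day 3 (higher) and Gfi1b on day 5 (lower).

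Compared with day 0, the factors past the fold were all higher. Without BMP4 these were Lmo2 on day 1 (11.8% of all genes were higher and 9.28% lower), Lmo2 and Tal1 on day 3 (16.4%), and Lmo2, Tal1 and Gfi1b on days 5 and 7 (20.2% and 22.2%). With BMP4 they were Lmo2 on days 1 and 3 (9.78% and 13.7%), and Lmo2, Tal1, Runx1 and Gfi1b on days 5 and 7 (14.9% and 17.5%). The Lmo2 difference from day 0 was 3.97 on day 1 without BMP4 and 3.72 with it. Tal1, Lmo2 and Gfi1b were under 1 FPKM on day 0, so they entered these counts through the later libraries, where they were higher. These comparisons share the day 0 library. The median of all genes was 0.17, 0.29 and 0.26 above day 0 on days 3, 5 and 7 without BMP4, and brought to the same median ratio the Tal1 difference of day 3 was 0.95 in place of 1.02. With a pseudocount of 0.1, Runx1 was lower than on day 0 past the fold on days 3 and 5 without BMP4.

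**Figure D4:**
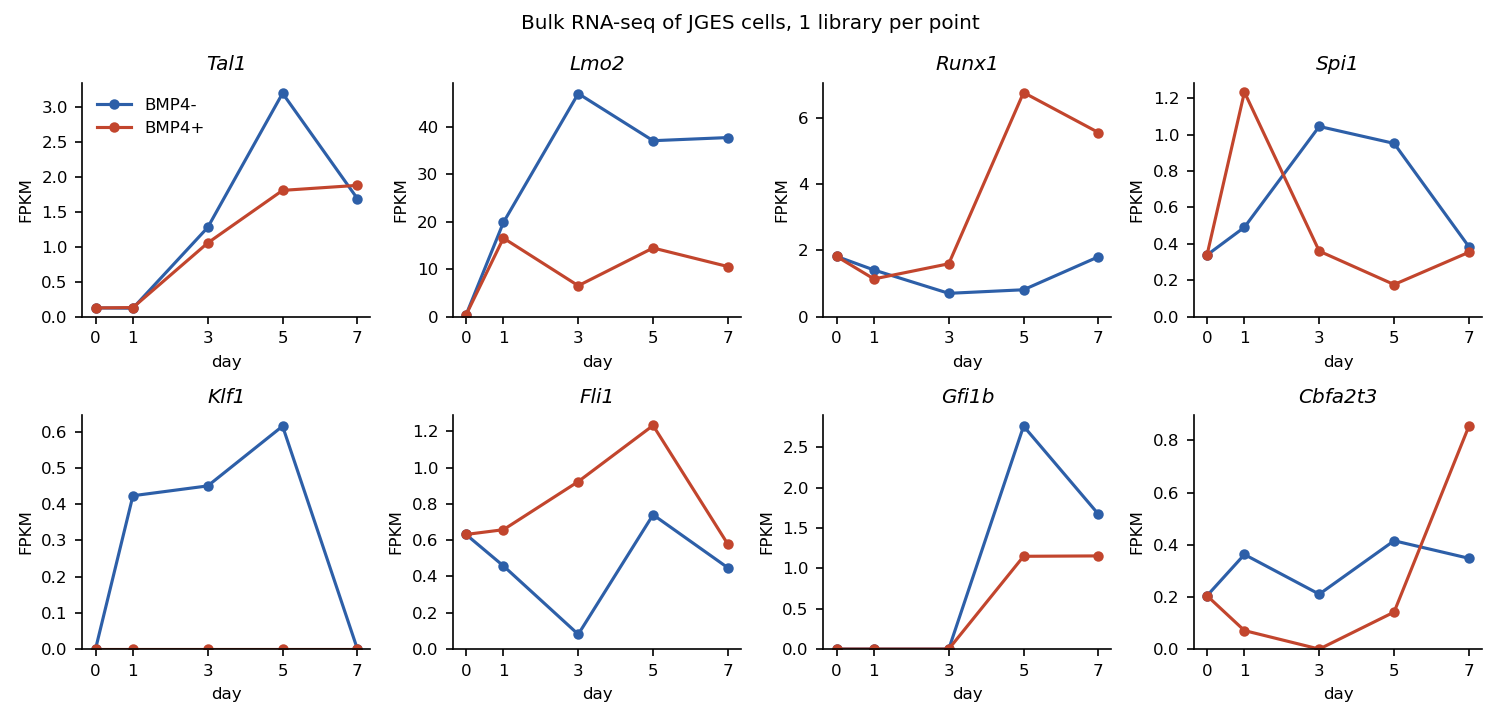
FPKM (linear axes from 0) of the 8 factors in bulk RNA-seq of JGES cells on days 0, 1, 3, 5 and 7, in blue without and in red with BMP4; each point is 1 library and the day 0 library is shared. Lmo2 is at 37.1 to 47.0 FPKM from day 3 without BMP4 and at 6.51 to 14.5 FPKM with it, and Runx1 is at 6.77 and 5.56 FPKM on days 5 and 7 with BMP4.

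Partner factors were read in the same libraries. Etv2 was listed at 0 on day 0, at 2.23, 14.0, 2.16 and 6.01 FPKM on days 1, 3, 5 and 7 without BMP4, and at 0.479, 2.69, 5.51 and 1.92 FPKM with it. Gata2 was at 9.97 FPKM on day 0, at 16.6, 8.26, 2.81 and 3.5 FPKM without BMP4, and at 39.0, 35.1, 49.4 and 31.1 FPKM with it. Every BMP4+ Gata2 value was above every BMP4- value, and the share of all genes with such an order was not counted. Gata1, at 2.69 FPKM, and Lyl1, at 2.91 FPKM, were highest on day 5 without BMP4, in the library with the highest Tal1 and Gfi1b of the JGES series. Of the 12 partner factors of at least 1 FPKM on day 7, 1 was higher with BMP4 past the fold (Gata2) and 6 were lower (Myb, Cebpa, Etv2, Hhex, Meis1 and Tcf3), with a median difference of -0.80. Among all genes tested, 10.3% were higher and 13.8% lower.

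Factor sets were compared on day 7 in the table of 8 libraries, which also holds a second copy of the JGES libraries. In the JGES copies 1 fragment was worth 5.90 and 5.45 times that in the JGE library without BMP4, against 0.803 to 1.11 times in the other libraries. The JGES copies come from the JGES series and the other libraries do not. Between JGES and another set, the factors and the group of libraries therefore cannot be told apart. Tal1 was at 0.0348 FPKM in JGE and 0.0459 FPKM in JGEO without BMP4, and at 1.54 FPKM in JGESO and 1.64 FPKM in JGES, the sets with Sall4. With BMP4 it was at 1.73 FPKM in JGE, 0.764 in JGEO, 2.83 in JGESO and 1.84 in JGES. Without BMP4, Tal1 thus passed 1 FPKM in the sets with Sall4 and not in those without it, while with BMP4 it also did so in JGE. In JGE the BMP4+ minus BMP4- difference of Tal1 was 1.4, and Tal1 was the 1 factor of the 8 past the fold there (4.28% of all genes were higher and 4.78% lower). With a pseudocount of 0.1 Fli1 (higher) and Cbfa2t3 (lower) passed it too. The 14 endothelial genes differed between the same libraries. Without BMP4 they summed to 71.5 FPKM in JGE, 44.0 in JGEO, 151 in JGESO and 137 in JGES. With BMP4 the sums were 249 FPKM in JGE, 115 in JGEO, 177 in JGESO and 189 in JGES. The part of this list in the Tal1 values was not tested.

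Gfi1b passed 1 FPKM in JGES and in no other set. It was at 1.63 and 1.13 FPKM in JGES without and with BMP4, at 0.305 and 0.299 FPKM in JGESO, at 0.0691 and 0.192 FPKM in JGE, and at 0.0682 and 0.0757 FPKM in JGEO. The JGES libraries were also the least deep of the 8.

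Lmo2 was high in the sets without Sall4 too. It was at 39.1 and 54.6 FPKM in JGE without and with BMP4, and at 16.5 and 27.5 FPKM in JGEO. In JGESO it was at 9.08 and 9.34 FPKM, and in JGES at 36.8 and 10.3 FPKM. The BMP4+ value was above the BMP4- value in JGE and JGEO and below it in JGES. Without BMP4, both sets with Oct4 were below the same set without it, with differences of -1.20 for JGEO against JGE and -1.91 for JGESO against JGES.

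Runx1 and Spi1, factors of white blood cells, were low in JGES without BMP4. Runx1 was at 1.76 FPKM there, against 7.69 FPKM in JGE, 3.39 in JGEO and 8.14 in JGESO. With BMP4 it was at 5.44 FPKM in JGES, 5.60 in JGE, 2.76 in JGEO and 5.70 in JGESO, so the JGES library was apart from the others without BMP4 alone. Spi1 was at 0.374 and 0.346 FPKM in JGES without and with BMP4, and at 1.45 to 2.48 FPKM in the other 6 libraries. The 14 macrophage genes summed to 14.8 and 13.4 FPKM in JGES and to 70.8 to 219 FPKM in the other 6, where 9 to 11 of them reached 1 FPKM and Ptprc was at 0 to 0.171 FPKM. The 5 pluripotent genes summed to 833 and 40.2 FPKM in JGES without and with BMP4, to 14.0 and 8.71 FPKM in JGE, and to 247 to 464 FPKM in the sets with Oct4. In the day 7 libraries of the JGES series, the 7 fibroblast genes summed to 97.4 FPKM without BMP4 and 690 FPKM with it. The part of these lists in the values of the 8 factors, Runx1 among them, was not tested. Fli1 was highest in JGE with BMP4, at 2.93 FPKM, and at 0.436 to 1.41 FPKM in the other libraries.

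Against JGE without BMP4, Tal1 and Gfi1b were higher in JGES past the fold (20.1% of all genes were) and Runx1 and Spi1 lower (16.9%). Lmo2 was lower in JGEO (11.9%), and in JGESO Tal1 was higher (16.5%) and Lmo2 lower (30.1%). From JGES to JGESO without BMP4, Runx1 was higher (16.8%) and Lmo2 and Gfi1b lower (32.7%). With BMP4, Lmo2, Spi1 and Fli1 were lower in JGES than in JGE (11.1%), Fli1 was lower in JGEO (4.29%, with no factor of the 7.54% higher) and Lmo2 in JGESO (21.6%), and Spi1 was higher in JGESO than in JGES (14.0%). Between BMP4+ and BMP4-, none of the 8 passed the fold in JGEO (2.26% of genes were higher and 1.95% lower) or JGESO (5.29% and 3.52%), though Fli1 did in JGESO with a pseudocount of 0.1. These comparisons share libraries, and in those with JGES the factors cannot be told apart from the group of libraries. With the 2 libraries brought to the same median ratio, JGEO was also lower than JGE for Runx1 without BMP4 (-1.04 in place of -0.98) and for Lmo2 with BMP4 (-1.05 in place of -0.96).

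In MEFs given Sall4 alone, Lmo2, Runx1, Spi1 and Cbfa2t3 were higher with SALL4 delN12 than with SALL4 WT on each day. Lmo2 was at 1.49, 1.42, 2.15 and 2.73 FPKM on days 1, 5, 9 and 11 with WT, and at 6.15, 9.27, 8.46 and 9.09 FPKM with delN12. Every delN12 value was above every WT value, with differences of 1.52, 2.09, 1.59 and 1.44. Runx1 was at 10.3, 9.44, 9.80 and 10.3 FPKM with WT and at 13.3, 15.4, 14.0 and 16 FPKM with delN12. Its values did not overlap either, and its differences of 0.34 to 0.65 were within the fold. The share of all genes without overlap between WT and delN12 was not counted, so this order is a description.

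Cbfa2t3 was at 0.0848, 0.264, 0.406 and 0.304 FPKM with WT and at 1.99, 1.77, 3.69 and 0.978 FPKM with delN12, with differences of 1.46, 1.13 and 1.74 on days 1, 5 and 9. Spi1 was at 5.96, 0.640, 0.848 and 0.958 FPKM with WT and at 7.37, 3.93, 3.36 and 6.68 FPKM with delN12. The Spi1 values of the 2 forms were close on day 1, with a difference of 0.27, and apart from day 5, with differences of 1.59, 1.24 and 1.97. Past the fold were 2, 3, 3 and 2 of the 8 on days 1, 5, 9 and 11, all higher with delN12, where 4.18%, 4.67%, 6.09% and 6.55% of all genes were higher and 5.63%, 5.19%, 5.75% and 6.58% lower. Cbfa2t3 on days 1, 5 and 9 and Spi1 on days 5, 9 and 11 were under 1 FPKM with WT. They entered these counts through the delN12 libraries, so their direction there was set by the filter. With a minimum of 5 FPKM in place of 1, these counts were 1, 1, 1 and 2. Fli1 was at 0.614 to 1.32 FPKM in the 8 libraries with no constant order. Tal1 was at most 0.223 FPKM, and Gfi1b and Klf1 were highest with WT on day 11, at 0.758 and 0.60 FPKM. Lmo2 and Cbfa2t3 were thus higher with delN12 beside very little Tal1, the factor they act with in blood.

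With the 4 days as pairs, limma was run over the 14741 genes of at least 1 FPKM in any of the 8 libraries, which 5 of the 8 factors were. Of these it called Lmo2, Runx1 and Spi1, higher with delN12 on 4 of 4 days, where 5.13% of genes were higher and 6.76% lower. The mean difference was 1.66 for Lmo2 (SE 0.14, adjusted p by limma 0.00414), 0.52 for Runx1 (SE 0.10, 0.0262) and 1.27 for Spi1 (SE 0.28, 0.0397). Cbfa2t3 reached 1 FPKM in delN12 libraries alone, so it entered the test through the group in which it was higher. Its call is therefore not read as a result, and its mean difference was 1.23 (SE 0.22). Leaving out a day in turn kept Lmo2 called, with an adjusted p of 0.00368 to 0.0330 by limma. Runx1 (0.0810 to 0.144) and Spi1 (0.115 to 0.163) lost the call without day 5, 9 or 11. The fifth factor, Fli1, had a mean difference of 0.09 (SE 0.16).

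Markers of other cell types moved with the same libraries. The 6 placenta genes summed to 15.4, 29.5, 45 and 54.4 FPKM with WT and to 246, 302, 252 and 234 FPKM with delN12 on days 1, 5, 9 and 11. Of the 5 tested, Krt8, Krt7 and Tfap2c were higher with delN12 past the fold on each day. The 5 primitive endoderm genes summed to 11.9 to 18.9 FPKM with WT and to 11, 15.4, 57.7 and 163 FPKM with delN12. The 14 macrophage genes summed to 439, 213, 177 and 200 FPKM with WT and to 449, 541, 595 and 1240 FPKM with delN12 on days 1, 5, 9 and 11, and 10 to 12 of them reached 1 FPKM in each library. Of the 12 tested, 4, 8, 11 and 12 were higher with delN12 past the fold. Csf1r, the macrophage growth factor receptor gene, was at 0.803 to 3.4 FPKM with WT and 6.92 to 9.09 FPKM with delN12, and Ptprc at 0.0882 to 0.892 FPKM over the 8 libraries. The part of these lists in the Spi1, Runx1, Lmo2 and Cbfa2t3 differences was not tested. The alpha globin genes Hba-a1 and Hba-a2, near-identical copies, were at 88.6 to 171 FPKM with delN12 on days 5, 9 and 11, in libraries with Klf1 at 0.221 FPKM or less.

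**Figure D5:**
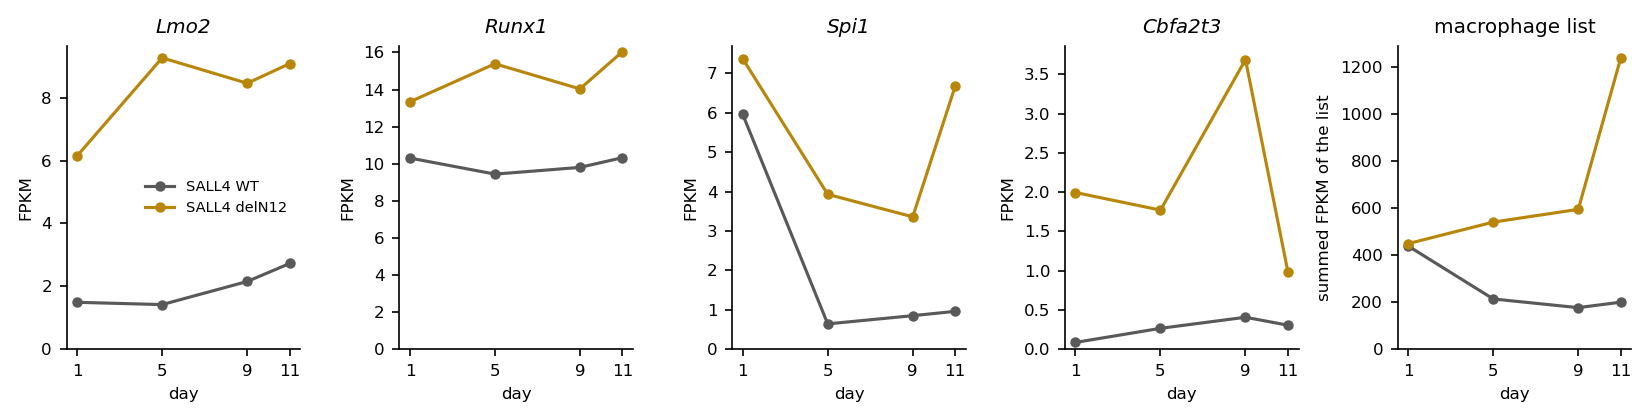
FPKM (linear axes from 0) of Lmo2, Runx1, Spi1 and Cbfa2t3, and the summed FPKM of 14 macrophage genes, in MEFs with SALL4 WT (grey) or SALL4 delN12 (gold) on days 1, 5, 9 and 11; each point is 1 library. The 4 factors are higher with delN12 on each day, and the macrophage sum is 449 to 1240 FPKM with delN12 and 177 to 439 FPKM with WT.

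Over the 17 libraries of the larger table, the genes most like each factor were found by the Pearson correlation of log2(FPKM + 1), as a description, since the libraries fall into a JGES and a SALL4 set of unequal depth. Runx1 was most like Cd63 (r = 0.97), Grn (0.97) and Lgals3 (0.96), and Spi1 most like Bcl2a1b (0.94), Hk3 (0.93) and C5ar1 (0.93). Lmo2 was most like Sp5 (0.94), Lrba (0.93) and Dnaja3 (0.92). Tal1 was most like 3632451O06Rik (0.95), D7Ertd143e (0.94) and Frem2 (0.94), and Gfi1b most like Aldoc (0.94), Fam25c (0.93) and Pias1 (0.92). Cbfa2t3 was most like Padi2 (0.91), Dbh (0.90) and Nptx1 (0.89). Likeness was weaker for Fli1 (Micu2, 0.76, Mir3076, 0.76, and 2010320M18Rik, 0.75) and Klf1 (Snord95, 0.81, Mir6954, 0.80, and Mir7028, 0.76).

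Chromatin at the starts of the 8 genes was read from the peak lists of MEFs and the Sall4 cultures, with a peak counted when it overlapped 2 kb to either side of a transcript start. H3K27ac, a mark of active promoters and enhancers, was found with SALL4 delN12 on day 6 at 7 of the 8 genes, all but Gfi1b, where 60.6% of 21938 protein-coding genes had such a peak. With SALL4 WT it was found at 4 of the 8 (Lmo2, Runx1, Klf1 and Fli1), where 50.9% of genes had one. The delN12 list holds 45599 peaks and the WT list 19841, and the depth behind each is unknown.

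The genes with an H3K27ac peak in delN12 cells and none in WT cells were Tal1, Spi1 and Cbfa2t3. The share of all genes with a peak in delN12 cells alone was not counted, so they are named as a description. The list also moved with the peak score. With scores of at least 100, Tal1 kept its peak in delN12 cells, and Spi1 and Cbfa2t3 had none in either list. Lmo2 and Fli1 then had a peak in delN12 cells alone. The Tal1 peak lay at chr4:115056492-115057681, inside the gene and just past the printed window, with a score of 161. The Spi1 peak lay at chr2:91082341-91085255 over the start of the gene, with a score of 62.1. The Cbfa2t3 peak lay at chr8:122676634-122678100 over an internal start of the GENCODE annotation, with a score of 98.0. At Lmo2 the highest score was 145 in delN12 and 64.1 in WT cells, at Klf1 189 and 103, at Fli1 129 and 92.6, and at Runx1 142 and 191. Runx1 was thus the gene of these 4 with the higher score in WT cells. Scores of lists with such unequal peak numbers are not on a common scale.

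SALL4 had a peak at 4 of the 8 genes in WT cells (Lmo2, Runx1, Klf1 and Cbfa2t3), where 57.4% of genes had one, and at 2 in delN12 cells (Runx1 and Fli1), where 44.3% had one. The highest scores were at Runx1, 427 at chr16:92696262-92699283 in WT and 177 at chr16:92694875-92699144 in delN12 cells. Open chromatin by ATAC-seq was found at 6 to 8 of the 8 genes in each of the 9 lists, where 62.5% to 70.3% of all genes had a peak. MEFs had a peak at 7 of the 8, all but Spi1. Runx1, Klf1, Fli1 and Cbfa2t3 had one in every list, Tal1 lacked it in delN12 cells on days 1, 5 and 9, and Gfi1b lacked it in delN12 cells on days 9 and 11. Spi1 lacked it in delN12 cells on day 11, where its RNA was at 6.68 FPKM against 0.958 FPKM with WT, and Lmo2 in WT cells on day 9. The H3K27ac peak of day 6 at Tal1 thus stood between ATAC-seq lists with no peak at its starts.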

How the data were processed

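The authors deposited single-cell UMI counts from STARsolo (GENCODE vM21, mm10) with a cell type label per cell, filtered with Scanpy. The authors made the bulk FPKM values with Trim Galore 0.6.4, HISAT2 2.2.1 and StringTie 2.2.1, and these carry no counts. The authors' peak score comes from MACS 1.4.2 after alignment with Bowtie2 2.4.5 and SAMtools 1.16.1, and Cut&Tag replicates were merged before calling. Columns of 10749 cells that no analysed sample's label matches were not used.

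From these files, UMIs were summed per sample and label and divided by the summed library (CPM), with exact Poisson and Clopper-Pearson intervals at 95% and an exact conditional binomial interval for ratios. Cells were thinned to 4000 UMIs for shares, but not for the divisions by Etv2, globin, Cdh5, Itga2b or macrophage genes. Bulk differences used log2(FPKM + 1), a minimum of 1 FPKM in either library and a limit of 1. Peaks were matched to starts within 2 kb. Each condition had 1 sample, so single libraries were compared without a test. Added after seeing the data, limma with the day as a block and its variance trend compared log2(FPKM + 1) over 4 days for BMP4 in JGES and for delN12 against WT, with Benjamini-Hochberg adjustment over all genes and calls at 0.05. Scripts were tested on simulated data. Python 3.11.15, NumPy 2.4.6, pandas 2.3.3, SciPy 1.17.1, Matplotlib 3.10.9, R 4.3.3 and limma 3.58.1 were used.

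Beside the 8 factors, the 3 genes most like each were named in the bulk table (by correlation, among genes reaching 5 FPKM) and in the BMP4- endothelial-labelled cells (by share of cells), and from the partner list the highest and those a result turns on. The members and lists were chosen with earlier results of these data known. Alternatives were other thinning depths, marker limits, pseudocounts, FPKM minimums, scalings, windows and peak scores.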

Additional observations from a re-analysis of the deposited data

Results flagged for a closer look

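The difference of Lmo2 between BMP4+ and BMP4- cultures on day 7 lay on opposite sides of 0 in 2 factor sets of the same table. The BMP4+ minus BMP4- difference of log2(FPKM + 1) was 0.71 in JGEO, at 27.5 and 16.5 FPKM, and -1.74 in JGES, at 10.3 and 36.8 FPKM. With 1 library for each set and condition, the difference between the sets was not tested.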

How the results depend on the processing

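Pairing by day, with limma, was added after seeing the data, and leaving out each day in turn gave 0 to 1 called factors for BMP4 in JGES, in place of 0, and 1 to 4 for delN12 against WT, in place of 4, with fewer libraries in each fit. A pseudocount of 0.1 left these counts at 0 and 4. The delN12 counts above 1 include Cbfa2t3, which entered the test through the delN12 libraries. In the fit without day 1, Spi1 did so too, as its other WT values were under 1 FPKM. The share of endothelial-labelled cells with several factors moved with its definition. With BMP4 it was 30.9% for at least 2 factors, 2.89% for at least 4, 2.27% at 2000 UMIs per cell, 57.2% without thinning and 3.10% without Fli1, Lmo2 and Tal1. Without BMP4 these were 32.0%, 0.789%, 3.35%, 43.8% and 2.17%. For limits of 2 and 4 markers and for no thinning, cells past the blood limit were 13.7%, 2.06% and 27% with BMP4 and 17%, 4.34% and 24.7% without, and cells past the endothelial limit 74.2%, 49.9% and 89.1% with BMP4 and 63.7%, 31.0% and 76.5% without.

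With a minimum of 5 FPKM, the factors past the fold numbered 0 for BMP4 in JGE and, with BMP4, for JGEO against JGE and JGESO against JGES. They numbered 1 for delN12 against WT on days 1, 5 and 9, for JGES and JGESO against JGE without BMP4, for JGES against JGE with BMP4, and for JGES without BMP4 on days 3, 5 and 7 against day 0, and 2 for JGES with BMP4 on days 5 and 7 against day 0. With a pseudocount of 0.1, counted after seeing the data, the factors past the fold numbered 1 for BMP4 in JGES on day 1 and in JGESO, and 3 for BMP4 in JGES on day 3 and in JGE. They numbered 4 for JGEO and JGESO against JGE without BMP4 and for JGES without BMP4 on day 3 against day 0, 3 for JGESO against JGES with BMP4, and 2 for JGEO and JGESO against JGE with BMP4 and for JGES with BMP4 on days 1 and 3 against day 0. Scaled to the median ratio, they numbered 2 for JGEO against JGE under both conditions and 1 for JGES without BMP4 on day 3 against day 0. With peak scores of at least 100, the factors with a peak numbered 4 in the ATAC-seq lists of day 1 (both forms) and day 5 delN12, 5 in that of day 11 WT, 2 in the H3K27ac and SALL4 lists of WT and 1 in the SALL4 list of delN12. In the H3K27ac list of delN12 they numbered 5, in place of 7.

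No bulk difference past the fold changed sign under the alternatives run. The order of the BMP4+ and BMP4- shares of cells with several factors turned at a limit of 2 factors and at 2000 UMIs, and without thinning that of the blood limit, of Tal1 (44.5% and 34.3%) and of Spi1 (32.3% and 31.4%) turned. Leaving out cells with globin UMIs, an alternative chosen after seeing the data, moved 10 of 16 single-cell levels beyond their intervals, and leaving out cells with macrophage markers moved 1. Leaving out cells over 5% mitochondrial UMIs moved none of the 16. The mean of the cells in place of summed UMIs moved 5, and leaving out the 6% of cells with most UMIs moved 2. A pseudocount of 0.1 moved 25 of 125 bulk differences, and scaling to the median ratio 6. Windows of 1 and 5 kb changed none of the 13 peak counts by over 1.5 times.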
